A study of Homo sapiens with 12 samples.

Results

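This account covers 150 genes of the LINC series, the names given to long noncoding RNA genes that lie between named genes, as they were measured in HEK293 cells treated with epidermal growth factor (EGF) and cordycepin. The members are the genes whose GENCODE release 44 symbol is LINC followed by digits only and whose mean over the 12 deposited libraries was at least 1 RPKM (reads scaled to gene length and to library size), with LINC02226 left out by the rule. Of 427 LINC genes listed at any level, 150 reached that mean, out of 26058 genes listed in all. Because the mean level chose them, their levels are given as a description, whereas the differences between groups were not part of the rule. Still, a member high in 1 treatment could reach the mean through it. All 150 members also passed the filter of a mean of 0.5 RPKM used for testing, which left 22067 genes. The name "intergenic" did not hold for every member in GENCODE release 44, since 25 overlapped the body of a protein-coding gene. A biotype other than lncRNA was carried by 7 members.

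The study asked how cordycepin acts on growth factor-dependent gene expression and whether AMP-activated protein kinase (AMPK) is needed for it. HEK293 is an established human embryonic kidney line. Wild-type cells (WT) were compared with a line in which PRKAA1 and PRKAA2, the genes of both catalytic subunits of AMPK, had been knocked out with CRISPR-Cas9 (AMPK KO). Both lines were a gift to the study, and the sources used here do not state whether the knockout line is 1 clone, so the knockout and other differences between the lines cannot be told apart.

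All cells of both lines were starved of serum for 24 h before treatment. The solvent DMSO was given alone, or DMSO or 25 µM cordycepin was given first and EGF added for the last 30 of 50 min. The concentration of EGF is stated as 15 in units that differ between sources, and the length of treatment with DMSO alone also differs between them. This gave 6 groups (WT or AMPK KO with DMSO, DMSO+EGF or cordycepin+EGF) of 2 libraries each, numbered replicates 2 and 3. Replicate 1 of each group was discarded by the authors and was not analysed here. EGF is a growth factor that acts through the receptor tyrosine kinase EGFR. Cordycepin is an adenosine analogue without the hydroxyl group to which the next nucleotide of an RNA chain is joined.

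Long intergenic noncoding RNAs are transcribed by RNA polymerase II, and many are capped, spliced and polyadenylated like mRNAs. They are usually less abundant than mRNAs and vary more between cell types, and many are retained in the nucleus and degraded there by the RNA exosome. Cleavage and polyadenylation of most transcripts is directed by the hexamer AATAAA, or the variant ATTAAA, shortly before the end of the RNA. For few members is a function established, so position and neighbouring genes are given instead.

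Depth was uneven. WT DMSO replicate 3 was shallow, with 3987180 reads on the listed genes, against 12618659 to 26315534 in the other 11 libraries, and the median member had 22 reads in that library and up to 184 in others. Replicates correlated at r = 0.918 across tested genes for WT DMSO and at 0.961 to 0.977 for the other groups. PRKAA1 measured 11.2 to 21.9 RPKM in WT and 7.03 to 8.51 RPKM in AMPK KO, without overlap, whereas PRKAA2 measured 6.78 to 12.1 RPKM in WT and 5.39 to 7.43 RPKM in AMPK KO, with an overlap. Of the markers of HEK293 cells, NEFL, INA, VIM, CDH2 and EYA1 reached at least 0.853 RPKM in every library, whereas NEFM, PAX2 and LHX1 stayed at or below 0.947 RPKM. The leukocyte marker PTPRC was at or below 0.061 RPKM. AMPK KO cordycepin+EGF replicate 2 stood apart in noncoding RNA. Genes of lncRNA biotype took 5.85% of its reads against 3.80% to 4.97% in the others, and it was the highest of the 12 libraries for 59 of the 150 members. The medians over all members in the comparisons that use it are also given without it. Those of the comparison lists and of groups of members are not.

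The ends of 6 RNAs are shown because these members passed the test between cordycepin+EGF and DMSO+EGF over both lines, as described below. Each line holds the last 60 bases of the longest GENCODE release 44 transcript, read 5′ to 3′ on the strand of the gene in GRCh38, with AATAAA or ATTAAA in capitals.
LINC01004, chr7:104981743-104981802, minus strand: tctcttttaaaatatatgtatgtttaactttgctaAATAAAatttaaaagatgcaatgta
LINC01355, chr1:23281309-23281368, minus strand: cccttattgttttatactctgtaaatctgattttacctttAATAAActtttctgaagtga
LINC02918, chr1:43937918-43937977, minus strand: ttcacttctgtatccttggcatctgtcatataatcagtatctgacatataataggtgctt
LINC01730, chr20:3812375-3812434, plus strand: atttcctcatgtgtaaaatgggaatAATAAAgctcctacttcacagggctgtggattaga
LINC02560, chr19:58400620-58400679, plus strand: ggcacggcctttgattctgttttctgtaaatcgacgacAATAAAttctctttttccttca
LINC01783, chr1:16533886-16533945, minus strand: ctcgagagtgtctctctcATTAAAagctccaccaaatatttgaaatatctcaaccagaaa
The hexamer AATAAA began 25 bases from the end in LINC01004, 20 in LINC01355, 35 in LINC01730 and 22 in LINC02560. LINC01783 held ATTAAA, and LINC02918 held neither in this window. Across members 62 of 150 (41.3%) held AATAAA in their last 60 bases, against 36.6% of the other lncRNA genes tested, 61.4% of protein-coding genes and 44.6% of all tested genes with an annotated transcript. With ATTAAA counted as well, the shares were 56.7% of members, 47.8% of other lncRNA genes and 75.5% of protein-coding genes. A match of letters is a description and not a mapped cleavage site.

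Start regions are shown for LINC02560 and LINC01730, which had the largest differences, and for LINC01783, the member that fell. RefSeq gives a window of 250 bases before to 50 bases after a gene's start, and 103 of the 150 members matched an entry. The windows below are from GRCh38.p14, 5′ to 3′ on the strand of the gene, and capitals mark CCAAT read on either strand.
LINC02560, chr19:58399953-58400252, plus strand: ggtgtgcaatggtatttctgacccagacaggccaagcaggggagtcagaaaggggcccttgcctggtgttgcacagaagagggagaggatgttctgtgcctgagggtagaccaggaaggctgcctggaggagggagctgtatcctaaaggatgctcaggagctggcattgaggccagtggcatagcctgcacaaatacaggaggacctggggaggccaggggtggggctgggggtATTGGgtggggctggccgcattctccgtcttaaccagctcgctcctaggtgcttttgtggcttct
LINC01730, chr20:3808244-3808543, plus strand: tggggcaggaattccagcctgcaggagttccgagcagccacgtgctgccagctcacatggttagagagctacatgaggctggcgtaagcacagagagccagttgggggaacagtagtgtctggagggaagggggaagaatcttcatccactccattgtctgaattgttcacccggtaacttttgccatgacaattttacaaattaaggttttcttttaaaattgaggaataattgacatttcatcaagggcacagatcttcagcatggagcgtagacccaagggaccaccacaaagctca
LINC01783, chr1:16535603-16535902, minus strand: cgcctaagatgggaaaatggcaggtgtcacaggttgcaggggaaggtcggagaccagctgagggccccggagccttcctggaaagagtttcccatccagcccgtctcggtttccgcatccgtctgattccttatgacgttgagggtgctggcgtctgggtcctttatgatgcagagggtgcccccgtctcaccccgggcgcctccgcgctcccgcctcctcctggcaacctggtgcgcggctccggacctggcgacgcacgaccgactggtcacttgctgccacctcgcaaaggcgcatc
LINC02560 held CCAAT as ATTGG, and neither LINC01730 nor LINC01783 held it. The RefSeq window of LINC01355 lies inside the gene as GENCODE release 44 draws it and is not printed; it held CCAAT and TATAAA. Letters of 6 motifs were searched on both strands: TGACGTCA, the cAMP response element, TGACTCA, the AP-1 element, GCGGGGGCG, the EGR element, TATAAA, the TATA element, CCAAT, and the CArG box, which is given by name alone. Among the 103 member windows 49 held CCAAT (47.57%), against 34.61% of all 35116 RefSeq windows. The other motifs were in 0.97% to 8.74% of member windows and in 1.29% to 11.53% of all windows. Median GC content was 59.3% in member windows and 58.7% in all.

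The members were RNAs of low abundance. Their median of the 12-library mean was 2.09 RPKM, against 3.63 RPKM for all tested genes and 6.0 RPKM for protein-coding genes. Only 8 members averaged 10 RPKM or more, 72 averaged less than 2 RPKM, and 88 were at 1 RPKM or more in every library. In 107 members each of the 6 group means was at least 1 RPKM, and no member had only 1 group mean at or above that level. Even so, LINC02560 and LINC02896 reached the mean of 1 RPKM only with their cordycepin libraries counted. How many other members did so was not counted. LINC02560 also passed the filter of 0.5 RPKM only with them. A library listed at 0 occurred for 3 members, LINC01364, LINC02951 and LINC02560.

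LINC00852 had the highest mean, 18.9 ± 4.64 RPKM (SD over 12 libraries), from 11.998 to 27.3 RPKM. LINC00685 followed at 17.1 ± 6.62 RPKM and LINC00106 at 16.2 ± 3.58 RPKM. Both lie in the part of chromosome X that is identical to a part of chromosome Y, so reads could be split between copies and their values are uncertain. Next came LINC00665 at 15.1 ± 1.49 RPKM, LINC00674 at 13.9 ± 2.25 RPKM and LINC02585 at 12.7 ± 3.43 RPKM. These neighbours in the order did not differ by more than their spread over libraries. LINC00641 averaged 12.2 RPKM, LINC01535 11.3 RPKM, LINC03057 9.98 RPKM, LINC02381 9.69 RPKM, LINC01963 9.16 RPKM and LINC00342 8.93 RPKM.

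At the other end of the list, the members just inside the limit of 1 RPKM were LINC02666 at 1.009, LINC00667 at 1.013 and LINC00622 at 1.015 RPKM. The LINC genes just outside were LINC01399 at 0.984, LINC00339 at 0.982 and a second Ensembl gene named LINC01605 at 0.979 RPKM. The SD of the former over the 12 libraries was 0.234, 0.211 and 0.332 RPKM.

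**Figure D1:**
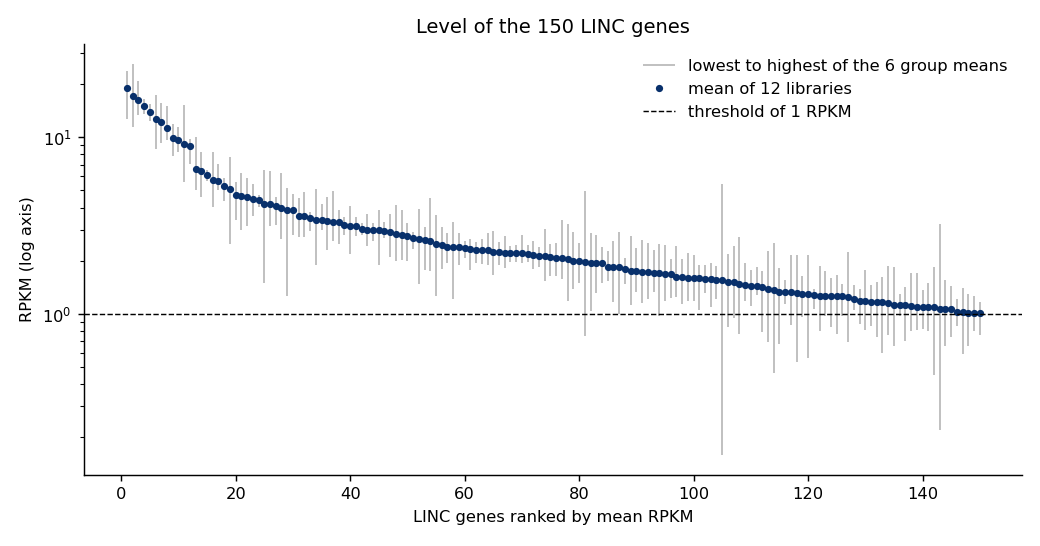
RPKM (vertical axis, log scale) of the 150 LINC genes, ranked by their mean over 12 libraries (horizontal axis); points are means, grey lines run from the lowest to the highest of the 6 group means, and the dashed line marks 1 RPKM. Means fall from 18.9 RPKM to just above 1 RPKM, and the lines of 43 genes reach below 1 RPKM.

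The spread over the 12 libraries differed widely among members. The median coefficient of variation was 26.8%, against 17.3% for protein-coding genes and 33.0% for other lncRNA genes with a mean of at least 1 RPKM, 2 comparison lists that were added after the values were seen. The steadiest was LINC02693, at 6.15 ± 0.441 RPKM and 5.46 to 6.81 RPKM over all libraries, a coefficient of variation of 7.16%. LINC02210 (9.67%) and LINC00665 (9.87%) came next. LINC02560 varied most, by 144%.

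In structure the members were just as mixed. The gene length behind the RPKM values, worked out from the values themselves, had a median of 2587 bases and ranged from 196 bases in LINC02585 to 33198 bases in LINC00662. For 7 members it differed by more than 1% from the exon length in GENCODE release 44, LINC00674, LINC01881, LINC00680, LINC00888, LINC01347, LINC00472 and LINC01145, so the RPKM of these rest on another annotation. The longest transcript of 34 members had a single exon. Members lay on 22 chromosomes, 28 of them on chromosome 1. The median distance to the nearest protein-coding gene was 5822.5 bp, and 17 lay more than 100 kb away.

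The effect of cordycepin was examined first, by comparing cordycepin+EGF with DMSO+EGF within each line and as the mean of both lines. As the mean of both lines, 128 of the 150 members (85.3%) had a log2 fold change above 0, with a median of 0.200, against 53.3% and 0.022 for all tested genes. In limma's moderated test with Benjamini-Hochberg adjustment over all tested genes, LINC02560, LINC01730, LINC02918, LINC01355 and LINC01004 rose and LINC01783 fell. These are 5 of 150 members higher and 1 lower, beside 0.888% of all tested genes called higher and 0.077% called lower. At an unadjusted p below 0.05, 35 were higher and 1 lower, beside 10.0% and 5.25%, and 4 were higher and 0 lower past the study's limits (an unadjusted p of 0.05 and a log2 fold change of 1), beside 1.11% and 0.136%. Differences are given on the scale of log2(upper-quartile-scaled RPKM + 0.5), on which changes of low genes are understated. In bulk RNA, fewer cells with an RNA and less of it per cell cannot be told apart.

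LINC01730 (ENSG00000275491, chr20:3808357-3812434, plus strand) lies 2236 bp downstream of CDC25B, the gene of a phosphatase that activates cyclin-dependent kinases. In WT it measured 1.32 and 0.884 RPKM with DMSO, 0.702 and 0.793 RPKM with DMSO+EGF, and 2.22 and 3.11 RPKM with cordycepin+EGF, in the order of replicates 2 and 3. In AMPK KO the same groups measured 1.16 and 1.30, 0.858 and 1.20, and 6.07 and 3.82 RPKM. All 4 cordycepin libraries lay above all 8 others. The log2 fold change was 1.36 in WT (SE 0.259, adjusted p 0.236), 1.85 in AMPK KO (SE 0.259, adjusted p 0.0332) and 1.61 as the mean (SE 0.183, adjusted p 0.00882). CDC25B itself had a mean log2 fold change of -0.07.

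LINC01355 (ENSG00000261326, chr1:23281307-23287488, minus strand) is a gene of 1 exon, 16283 bp from HNRNPR, which encodes an RNA-binding protein. It measured 2.15 and 2.01 RPKM in WT DMSO, 1.90 and 1.82 RPKM in WT DMSO+EGF, and 3.21 and 3.47 RPKM in WT cordycepin+EGF. The AMPK KO libraries measured 1.92 and 1.83 RPKM with DMSO, 1.60 and 1.90 RPKM with DMSO+EGF, and 4.77 and 4.26 RPKM with cordycepin+EGF. Replicates lay close together, and the cordycepin libraries of both lines stood clear of the rest. It had 50 to 572 reads in a library, more than any other of the 6 except LINC01004. The log2 fold change was 0.74 in WT (SE 0.152, adjusted p 0.252), 1.20 in AMPK KO (SE 0.152, adjusted p 0.026) and 0.97 as the mean (SE 0.108, adjusted p 0.00882).

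LINC02918 (ENSG00000237950, chr1:43937918-43940781, minus strand) lies 678 bp from ARTN, the gene of a ligand of the GDNF family, on the other strand. WT libraries measured 1.11 and 1.45 RPKM with DMSO, 1.17 and 1.20 RPKM with DMSO+EGF, and 2.87 and 3.22 RPKM with cordycepin+EGF. AMPK KO libraries measured 1.81 and 2.40, 1.46 and 1.40, and 3.87 and 2.57 RPKM in the same groups. The cordycepin libraries were the 4 highest, the lowest of them only just above an AMPK KO DMSO library. The mean log2 fold change was 1.03 (SE 0.151, adjusted p 0.0236), with 1.10 in WT and 0.96 in AMPK KO. ARTN had a mean of 0.54, which did not pass the test (adjusted p 0.374).

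LINC01004 (ENSG00000228393, chr7:104950315-105013068, minus strand) overlaps KMT2E, the gene of a chromatin protein, on the opposite strand. It measured 5.16 and 5.50 RPKM in WT DMSO, 5.99 and 4.85 RPKM in WT DMSO+EGF, and 8.61 and 8.79 RPKM in WT cordycepin+EGF. In AMPK KO it measured 5.10 and 5.01, 5.04 and 5.09, and 11.9 and 8.10 RPKM. The 8 libraries without cordycepin lay in a narrow band below the 4 with it. The mean log2 fold change was 0.81 (SE 0.127, adjusted p 0.0285), while KMT2E had -0.10 (adjusted p 0.765). Whether strand was used in counting is not given in the sources used here, so reads of the overlapping genes may not be separated.

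LINC02560 (ENSG00000268307, chr19:58400221-58400679, plus strand) is a gene of 1 exon and 459 bases, 825 bp from the zinc finger gene ZNF584. It had very few reads without cordycepin, 5 and 2 in the WT DMSO+EGF libraries and 2 and 0 in the AMPK KO ones. With cordycepin it had 12 and 27 reads in WT and 51 and 28 in AMPK KO. As RPKM, DMSO+EGF measured 0.430 and 0.265 in WT and 0.315 and 0 in AMPK KO, and cordycepin+EGF measured 0.907 and 3.67 in WT and 7.59 and 3.22 in AMPK KO. The cordycepin libraries were thus higher in both lines, but WT cordycepin replicate 2 lay below AMPK KO DMSO replicate 3, at 0.926 RPKM. The ratio of reads at equal depth was 5.19 in WT (exact 95% interval 2.29 to 13.8) and 32.5 in AMPK KO (exact 95% interval 8.71 to 273), intervals that cover counting error only. The mean log2 fold change was 2.34 (SE 0.382, adjusted p 0.0323). Its place among the tested genes rested on the same cordycepin libraries, so the call is not independent of the filter.

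LINC01783 (ENSG00000233421, chr1:16533886-16535649, minus strand) was the member that fell. It lies 26670 bp from NBPF1, a member of the neuroblastoma breakpoint family. WT libraries measured 0.683 and 0.802 RPKM with DMSO, 1.02 and 1.34 RPKM with DMSO+EGF, and 0.538 and 0.725 RPKM with cordycepin+EGF. AMPK KO libraries measured 1.60 and 2.08, 1.54 and 1.82, and 0.353 and 0.546 RPKM. The difference was wider in AMPK KO, where the libraries without cordycepin stood higher. The mean log2 fold change was -0.86 (SE 0.143, adjusted p 0.0338), with -0.54 in WT and -1.18 in AMPK KO.

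**Figure D2:**
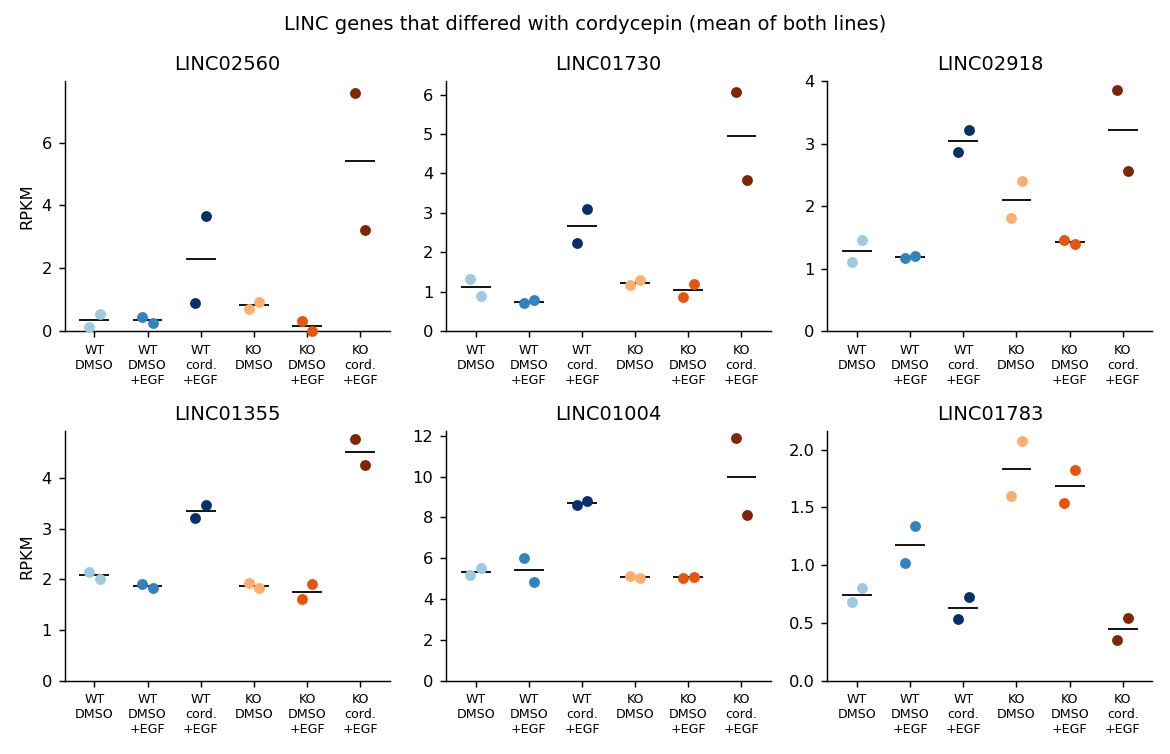
RPKM of the 6 LINC genes that passed the test for cordycepin over both lines, 1 panel a gene, with RPKM on the vertical axis, a point for each library and a bar at the mean of each group. In each panel the cordycepin+EGF points of a line lie above its DMSO+EGF points, except for LINC01783, where they lie below.

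The 6 calls rested on single libraries to different degrees. LINC01730 and LINC01355 kept an adjusted p below 0.05 in all but 3 alternatives, the fits without WT DMSO+EGF replicate 3, WT cordycepin+EGF replicate 3 or AMPK KO DMSO+EGF replicate 2, where it was 0.0566 to 0.0584 for both. Their log2 fold changes stayed between 1.32 and 2.00 and between 0.84 and 1.14. LINC02918 lost its call in 7 of 20 alternatives, the fits without any 1 of the compared libraries other than AMPK KO cordycepin+EGF replicate 3, with an adjusted p of 0.0731 to 0.111 and log2 fold changes of 0.86 to 1.27. LINC01004 and LINC01783 lost it without each of those libraries and without either AMPK KO DMSO library (adjusted p 0.0603 to 0.131 and 0.0624 to 0.163), and in the fit to the groups compared alone (0.0593 and 0.0553). Their log2 fold changes ranged from 0.67 to 0.95 and from -1.34 to -0.63. LINC02560 lost it without the same libraries except WT cordycepin+EGF replicate 2 (0.064 to 0.145), with a replicate block (0.0519) and with the groups compared alone (0.0633), at 1.80 to 3.43. No alternative turned a direction.

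Within WT alone 99 of 150 members (66.0%) lay above 0, with a median of 0.196 against 0.033 for all tested genes. None passed the adjusted test in limma, beside 0.0% of all tested genes called higher and 0.00453% called lower. Limma-voom on reads recovered from the RPKM called 7 members, and its share of all tested genes was not counted. At an unadjusted p below 0.05, 23 members were higher, beside 8.86% of all tested genes, and 1 was lower, beside 7.13%. Without overlap between the groups 65 were higher (25.7% of all tested genes) and 28 lower (27.8%). LINC02560, LINC02896, LINC01730, LINC02922, LINC02918 and LINC01134 were past the study's limits, 6 members higher and 0 lower beside 1.62% and 0.988% of all tested genes. LINC02896, 2317 bp from the ribosomal protein gene RPLP1, measured 0.403 and 1.09 RPKM in DMSO+EGF and 2.66 and 2.39 RPKM in cordycepin+EGF (log2 fold change 1.37, adjusted p 0.267). LINC02922 measured 1.41 and 1.09 RPKM against 2.57 and 4.47 RPKM (log2 fold change 1.20), and WT DMSO had 2.50 and 7.80 RPKM.

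Within AMPK KO alone 121 members (80.7%) lay above 0, with a median of 0.266 against 0.056. LINC01730 and LINC01355 were the members past the adjusted test, 2 higher and 0 lower beside 0.385% and 0.0861% of all tested genes. At an unadjusted p below 0.05, 43 were higher and 3 lower, beside 11.7% and 10.1%. Without overlap 72 were higher and 13 lower, beside 29.2% and 30.0%. Beyond those already described, LINC02951 measured 0.663 and 0.498 RPKM with DMSO+EGF and 3.45 and 3.03 RPKM with cordycepin+EGF (log2 fold change 1.83, adjusted p 0.156). LINC02896 measured 0.370 and 0.556 RPKM against 3.49 and 1.35 RPKM, LINC01976 1.06 and 2.00 RPKM against 3.77 and 3.20 RPKM, and LINC02936 0.902 and 1.03 RPKM against 3.29 and 1.69 RPKM. Their libraries did not overlap, and their adjusted p were 0.0966, 0.143 and 0.20. LINC01786 measured 1.69 and 3.25 RPKM against 5.06 and 5.25 RPKM (log2 fold change 1.02, adjusted p 0.181). In all, 9 members were higher and 1 lower past the study's limits, beside 2.97% and 0.394% of all tested genes.

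The calls of LINC01730 and LINC01355 in AMPK KO were lost without any 1 library of WT DMSO+EGF, WT cordycepin+EGF, AMPK KO DMSO or AMPK KO DMSO+EGF (adjusted p 0.053 to 0.207) and with the groups compared alone (0.101 for both), and that of LINC01355 also without AMPK KO cordycepin+EGF replicate 3 (0.059). Without AMPK KO cordycepin+EGF replicate 2, the AMPK KO median was 0.149, with 100 members above 0 and none called, LINC01730 and LINC01355 both having an adjusted p of 0.236. The mean over both lines then had a median of 0.152, with 118 members above 0 and 2 called. Without the other AMPK KO cordycepin library the AMPK KO median was 0.409 and that of the mean 0.265, with 127 and 130 members above 0. With RPKM as deposited, the mean over both lines had a median of 0.164, and with median-ratio scaling 0.160, both with 119 members above 0.

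By library, the median member lay at -0.145 to -0.071 relative to its 12-library mean in the 4 WT libraries without cordycepin and at -0.075 to -0.041 in the 4 of AMPK KO. It lay at 0.098 and 0.039 in WT cordycepin+EGF and at 0.330 and 0.092 in AMPK KO cordycepin+EGF. The 4 cordycepin libraries were thus the 4 highest, and AMPK KO replicate 2 stood well above the other 3. The share of reads on members was 0.273% in that library and 0.179% to 0.225% in the others.

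**Figure D3:**
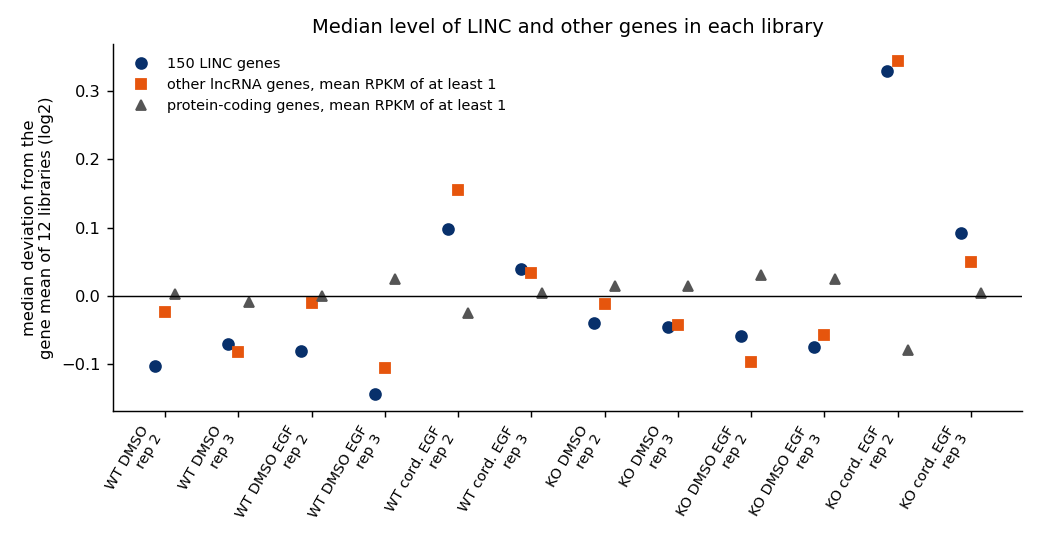
Median, over the 150 LINC genes (circles), other lncRNA genes (squares) and protein-coding genes (triangles), of the log2 level in each library minus the gene's mean over 12 libraries (vertical axis), with 1 column a library. The LINC medians of the cordycepin+EGF libraries lie at 0.039 to 0.330 and those of the other 8 libraries at -0.145 to -0.041.

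With cordycepin 99 members were above 0 in WT and 121 in AMPK KO. A total of 74 members had a cordycepin log2 fold change above 0 in both lines and 4 below 0 in both, while 25 were above 0 in WT only and 47 in AMPK KO only. The 74 are no more than unrelated signs would give at those counts by line. The share of all tested genes above 0 in both lines was not counted. The 2 comparisons share no library. In 26 members the cordycepin libraries lay above the DMSO+EGF libraries in both lines without overlap, and in 1, LINC01783, below, beside 7.26% and 5.65% of all tested genes. Among these 26, from which genes were chosen after their values were seen, LINC00115 came close to the adjusted limit at 0.67 (adjusted p 0.0576), as did LINC02896 at 1.45 (adjusted p 0.0602) and LINC01535 at 0.48 (adjusted p 0.0734). LINC00115 measured 1.81 and 1.52 RPKM in WT DMSO+EGF against 2.80 and 2.92 RPKM with cordycepin, and 1.86 and 1.62 RPKM against 3.34 and 2.57 RPKM in AMPK KO. LINC02908 (0.72), LINC01352 (0.70), LINC01389 (0.68), LINC01530 (0.67), LINC01311 (0.66), LINC01364 (0.66), LINC00938 (0.59) and LINC01409 (0.56) had the next largest means, with adjusted p of 0.08 to 0.445. The smallest of the 26 was LINC00205, at 0.16 in each line.

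**Figure D4:**
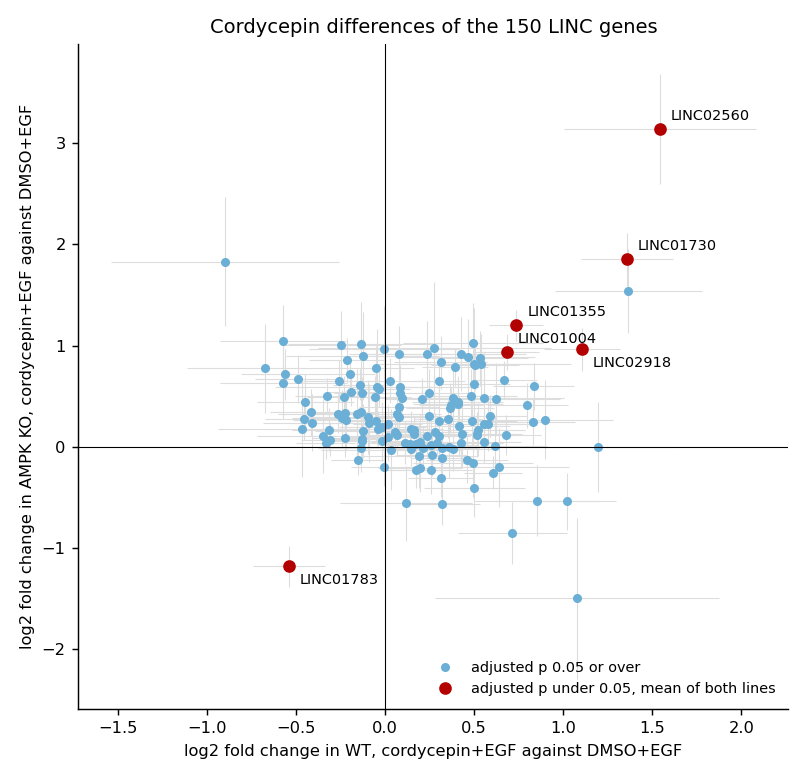
Log2 fold change of cordycepin+EGF against DMSO+EGF in WT (horizontal axis) and in AMPK KO (vertical axis), with 1 point for each of the 150 LINC genes, lines of 1 SE, and the 6 called genes in red. Of these points 99 lie above 0 in WT, 121 in AMPK KO and 74 in both, and 4 lie below 0 in both.

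Members were then grouped by features that the rule did not use, groupings made after the values were seen and given without a test. Their values for AMPK KO and for the mean of both lines include AMPK KO cordycepin+EGF replicate 2 and were not repeated without it. The mean over both lines had a median of 0.202 in the 107 members with all 6 group means at or above 1 RPKM, with 94 above 0, and 0.197 in the other 43. It was 0.181 in the 78 members at 2 RPKM or more and 0.218 in the 72 below. Single-exon members had a median of 0.272 (29 of 34 above 0) and members with more exons 0.191 (99 of 116). The 28 members on chromosome 1 had a median of 0.319, with 26 above 0, against 0.184 for the other 122. Members with AATAAA in the last 60 bases had 0.21 (52 of 62 above 0) and those without 0.18 (76 of 88). Within single lines some of these orders differed. Members at 2 RPKM or more and below had medians of 0.236 and 0.103 in WT but 0.185 and 0.335 in AMPK KO. In WT 20 of 34 single-exon members were above 0, against 79 of 116 with more exons. In AMPK KO 21 of 28 members on chromosome 1 were above 0, against 100 of 122 elsewhere.

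Position relative to a protein-coding gene was the next grouping, again as the mean of both lines with AMPK KO cordycepin+EGF replicate 2 included. Of the 78 that lay more than 5 kb from one, 63 were above 0, with a median of 0.105. All 13 that lay downstream on the same strand within 5 kb were above 0, with a median of 0.288. So were all 10 that lay head to head within 1 kb, with a median of 0.258, and all 24 in another arrangement within 5 kb, with a median of 0.445. Of the 25 that overlapped a protein-coding gene 18 were above 0, with a median of 0.302. The nearest protein-coding gene was tested for 119 members. The median of these neighbours was -0.015, and 60 of the 119 pairs had the same sign. In the 3 arrangements within 5 kb the neighbours had medians of 0.045, 0.026 and -0.011. In WT alone, a comparison without that library, the pattern was weaker. There 8 of the 13 downstream members, 8 of the 10 head to head and 18 of the 24 in another arrangement were above 0. So were 51 of the 78 more than 5 kb away and 14 of the 25 that overlapped.

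Against the other lists, the members resembled other noncoding RNA, in medians not repeated without AMPK KO cordycepin+EGF replicate 2. In that library the median other lncRNA gene lay at 0.345 relative to its 12-library mean, against 0.049 in replicate 3. Other lncRNA genes with a mean of at least 1 RPKM (3086 genes) had a median of 0.205 with 76.2% above 0, divergent transcripts with symbols ending in -DT (269) 0.254 with 86.6%, and antisense genes with symbols ending in -AS and a number (739) 0.171 with 76.2%. The 71 LINC genes between 0.5 and 1 RPKM had 0.160, with 59 above 0. Protein-coding genes (12822) had a median of -0.039, with 42.5% above 0. The nuclear RNA exosome with its adaptors degrades many of these RNAs, and none of its 19 genes passed the adjusted test over both lines. Their median was -0.061 with 7 above 0, the exosome subunit EXOSC3 at 0.25 (adjusted p 0.241) and the helicase MTREX at -0.33 (adjusted p 0.166) being those past an unadjusted p of 0.05. By line the exosome list had a median of 0.095 with 13 above 0 in WT and -0.152 with 5 above 0 in AMPK KO. The part of the exosome in the LINC values was not tested.

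Whether cordycepin acted differently in the lines was tested as an interaction. None of the 150 members, and 0.0% of all tested genes in either direction, passed the adjusted test in limma. Limma-voom on recovered reads called 15 members, and its share of all tested genes was not counted. At an unadjusted p below 0.05 the signed log2 fold change was higher in AMPK KO for 20 members and lower for 8. This stands beside 10.9% and 10.5% of all tested genes. The median interaction was 0.119 against 0.019 for all tested genes, with 0.003 when AMPK KO cordycepin+EGF replicate 2 was left out and 0.306 when replicate 3 was. LINC01134, which starts 54 bp from C1orf174 on the other strand, measured 0.531 and 0.533 RPKM in WT DMSO+EGF and 1.48 and 1.63 RPKM with cordycepin. In AMPK KO it measured 1.33 and 2.14 RPKM and then 1.27 and 0.734 RPKM. It was higher with cordycepin in WT and lower in AMPK KO, with an interaction of -1.56 (SE 0.395, adjusted p 0.123). LINC00652 had a like pattern, at 0.868 and 1.12 RPKM against 1.54 and 2.29 RPKM in WT and 2.45 and 2.54 RPKM against 1.26 and 0.997 RPKM in AMPK KO, with -1.57 (adjusted p 0.127). LINC02951, at 1.36 and 0.837 RPKM against 0.875 and 0 RPKM in WT and the AMPK KO values given above, had 2.73 (adjusted p 0.151), on 0 to 25 reads in a library.

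With EGF alone, DMSO+EGF against DMSO, the members lay slightly lower than all tested genes. In WT 68 of 150 (45.3%) were above 0, with a median of -0.041, against 52.3% and 0.016 for all tested genes. In AMPK KO 70 (46.7%) were above 0, with a median of -0.038, against 51.4% and 0.006. Other lncRNA genes with a mean of at least 1 RPKM had 49.4% above 0 in WT and 42.8% in AMPK KO. Without WT DMSO+EGF replicate 3 the WT median of the members was 0.028. No member passed the adjusted test in limma in either line or as the mean of both, beside 0.0227%, 0.0136% and 0.0227% of all tested genes called higher and 0.0% called lower each time, and limma-voom called 0 members too. At an unadjusted p below 0.05 there were 7 higher and 5 lower in WT (6.18% and 3.53% of all tested genes) and 0 higher and 1 lower in AMPK KO (1.03% and 1.4%), and 0 and 1 as the mean (2.03% and 1.5%). The groups did not overlap for 26 higher and 37 lower members in WT (20.5% and 16.0%) and for 19 and 38 in AMPK KO (19.2% and 19.3%), and in both lines for 2 and 2 (2.13% and 1.86%). These comparisons share the DMSO+EGF libraries with those of cordycepin.

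Past the study's limits, 0 members were higher and 1 lower in WT (0.979% and 0.557% of all tested genes), 0 and 1 in AMPK KO (0.285% and 0.308%), and 0 and 0 as the mean (0.186% and 0.0952%). LINC02922 measured 2.50 and 7.80 RPKM in WT DMSO and 1.41 and 1.09 RPKM in WT DMSO+EGF (log2 fold change -1.54, SE 0.442, adjusted p 0.438). The higher of the DMSO values came from the shallow library. LINC01786 measured 4.43 and 7.10 RPKM in AMPK KO DMSO and 1.69 and 3.25 RPKM in AMPK KO DMSO+EGF (log2 fold change -1.08, SE 0.393, adjusted p 1). In WT it measured 2.29 and 5.33 RPKM and then 4.23 and 6.99 RPKM, so its replicates were far apart in all 4 groups. The EGF effect did not differ between the lines for any member in the adjusted test (0.0% of all tested genes). At an unadjusted p below 0.05 the signed EGF log2 fold change was higher in AMPK KO for 3 members and lower for 9, beside 3.3% and 5.38%. LINC02593 stood out among these, at 4.02 and 2.03 RPKM in WT DMSO and 6.18 and 6.41 RPKM in WT DMSO+EGF, but 3.46 and 3.22 RPKM and then 2.70 and 2.58 RPKM in AMPK KO, with an interaction of -1.26 (adjusted p 0.569).

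The lines themselves differed at several members, though adjusted calls over the 3 treatments were about as frequent as among all tested genes. As the mean over the 3 treatments, LINC01963, LINC01238, LINC01881, LINC02367 and LINC01605 were higher in AMPK KO and LINC02985 was lower, 5 and 1 of 150 beside 2.8% and 1.54% of all tested genes. Over all members 87 were above 0, with a median of 0.042 against 0.001 for all tested genes, and without AMPK KO cordycepin+EGF replicate 2 these were 76 and 0.01. Those past an unadjusted p of 0.05 were 23 higher and 5 lower, beside 10.9% and 9.44%. Without overlap between the lines in each of the 3 treatments 7 members were higher and 2 lower, beside 3.08% and 1.89%. These were LINC01963, LINC01238, LINC01881, LINC02367, LINC01237 (0.47), LINC02035 (0.32) and LINC02348 (0.24), and LINC02985 and LINC00665 (-0.16).

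LINC01963 (ENSG00000260804, chr2:216217045-216220192, plus strand) is a gene of 1 exon, 10742 bp downstream of XRCC5, which encodes the Ku80 subunit of the DNA end-joining complex. It measured 7.67 and 6.23 RPKM in WT DMSO, 6.43 and 6.95 RPKM in WT DMSO+EGF, and 5.76 and 5.47 RPKM in WT cordycepin+EGF. In AMPK KO it measured 10.9 and 8.94, 10.8 and 10.4, and 15.4 and 15.0 RPKM. Every AMPK KO library was above every WT library, and the gap was widest with cordycepin. The log2 difference, AMPK KO minus WT, was 0.46 with DMSO (adjusted p 0.131), 0.64 with DMSO+EGF (adjusted p 0.0554) and 1.38 with cordycepin+EGF (SE 0.14, adjusted p 0.00958). Over the 3 treatments it was 0.83 (SE 0.0811, adjusted p 0.00187), and the call held in all 19 alternatives. Cordycepin had a log2 fold change of -0.19 in WT and 0.54 in AMPK KO, an interaction of 0.74 that did not pass the test (SE 0.199, adjusted p 0.126). XRCC5 was also higher in AMPK KO, by 0.56 (adjusted p 0.0147), but had cordycepin log2 fold changes of -0.10 in WT and -0.45 in AMPK KO.

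LINC01238 (ENSG00000237940, chr2:241970683-241977276, plus strand) and LINC01881 (ENSG00000220804, chr2:242094894-242130807, plus strand, of pseudogene biotype) lie 117618 bp apart near the end of chromosome 2. LINC01238 measured 0.983 to 1.32 RPKM over the 6 WT libraries and 1.98 to 2.99 RPKM over the 6 AMPK KO libraries, a difference of 0.72 (SE 0.111, adjusted p 0.0104) that held in all 19 alternatives. LINC01881 measured 2.23 to 2.92 RPKM in WT and 3.26 to 4.68 RPKM in AMPK KO, a difference of 0.62 (SE 0.101, adjusted p 0.0124). Neither gene overlapped between the lines. Without AMPK KO DMSO+EGF replicate 3, LINC01881 had an adjusted p of 0.0568. The nearest protein-coding gene of both, FAM240C, had a difference of 0.41 (SE 0.178, adjusted p 0.235).

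LINC02367 (chr12:9347056-9400387, plus strand) measured 1.50 to 1.81 RPKM in WT and 2.11 to 3.31 RPKM in AMPK KO, a difference of 0.55 (SE 0.107, adjusted p 0.0253) that was lost in 9 of 19 alternatives. Those were the fits without any 1 library of the EGF-treated groups other than AMPK KO cordycepin+EGF replicate 3, or without either AMPK KO DMSO library (adjusted p 0.0565 to 0.0981). LINC01605 (ENSG00000253161) measured 0.639 to 1.14 RPKM in WT and 1.13 to 1.84 RPKM in AMPK KO, with a slight overlap, and its difference of 0.54 (SE 0.123, adjusted p 0.0458) was lost in 11, with RPKM as deposited (0.0501) and without any 1 library other than WT DMSO replicate 3 or AMPK KO DMSO replicate 2 (0.0649 to 0.139). LINC02985 (ENSG00000256546, chr12:122063306-122068616, plus strand) was the member that was lower. It begins 1262 bp downstream of BCL7A, which encodes a subunit of the BAF chromatin remodelling complex. It measured 4.75 and 5.70, 5.49 and 5.81, and 6.08 and 5.72 RPKM in the 3 WT groups and 3.30 and 2.95, 3.04 and 3.28, and 4.29 and 4.62 RPKM in the AMPK KO groups. All AMPK KO libraries lay below all WT libraries, and those with cordycepin lay nearest to them. The difference was -0.59 (SE 0.0799, adjusted p 0.00644), between -0.64 and -0.53 in all 19 alternatives, which all kept the call. BCL7A had a difference of -0.06 (adjusted p 0.697).

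**Figure D5:**
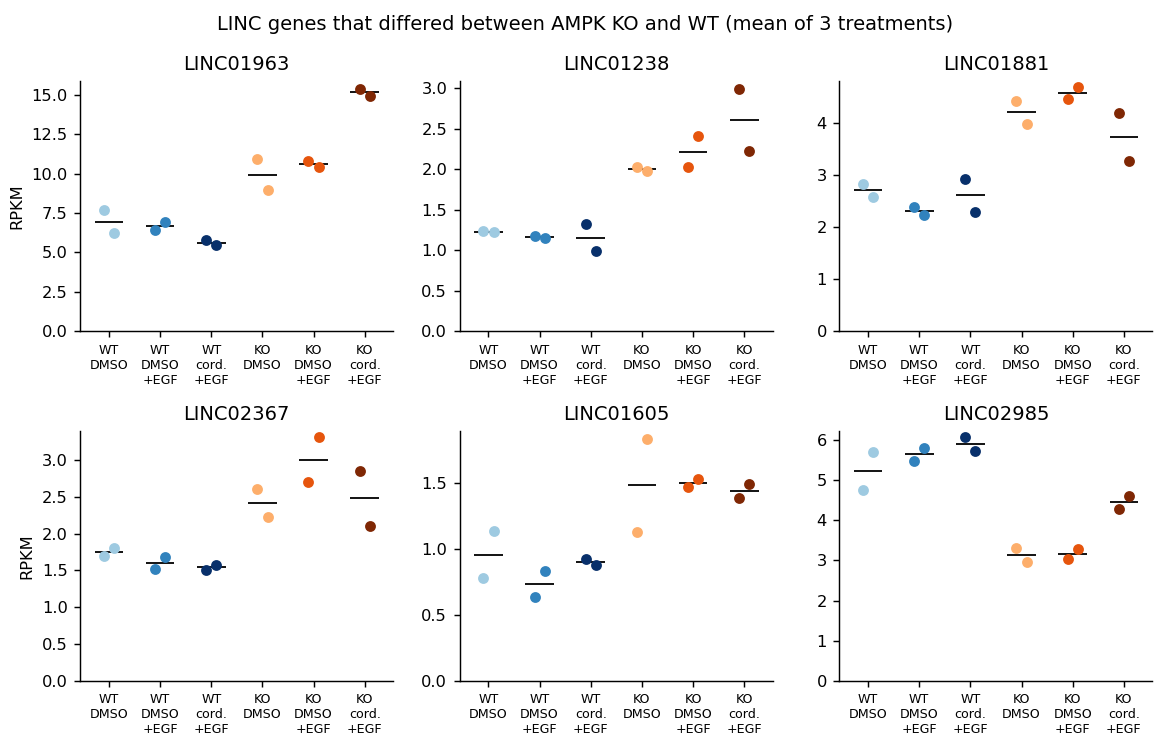
RPKM of the 6 LINC genes that passed the test between AMPK KO and WT over the 3 treatments, 1 panel a gene, with RPKM on the vertical axis, a point for each library and a bar at the mean of each group. AMPK KO points lie above WT points for LINC01963, LINC01238, LINC01881 and LINC02367, below them for LINC02985, and overlap slightly for LINC01605.

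By treatment, AMPK KO against WT gave no adjusted call with DMSO (0.281% of all tested genes higher and 0.159% lower). It gave 1 higher and 1 lower with DMSO+EGF (0.929% and 0.807%) and 1 higher with cordycepin+EGF (0.0453%, and 0.0725% lower). Limma-voom on recovered reads called 9 members with DMSO, and its share of all tested genes was not counted. With DMSO 18 members were higher and 9 lower at an unadjusted p below 0.05, beside 12% and 9.29%. With DMSO+EGF LINC01881 was higher by 0.86 (SE 0.175, adjusted p 0.0496, lost in 14 of 20 alternatives) and LINC02985 differed by -0.73 (SE 0.138, adjusted p 0.0432, lost in 12). Both calls were lost without any 1 library other than those of WT DMSO, with an adjusted p of 0.0547 to 0.304 and 0.0564 to 0.258. With cordycepin+EGF the call was LINC01963, lost without any 1 of the 4 cordycepin libraries, when the adjusted p was 0.0657 to 0.125, and in the fit to those groups alone (0.184). The median difference was 0.059 with DMSO, -0.026 with DMSO+EGF and 0.159 with cordycepin+EGF, against 0.009, -0.005 and 0.014 for all tested genes. With cordycepin+EGF the sign of the median turned on 1 library, at -0.027 with 71 members above 0 when AMPK KO replicate 2 was left out and 0.319 with 114 above 0 when replicate 3 was. The cordycepin+EGF comparison had 17 members higher and 3 lower at an unadjusted p below 0.05, beside 7.1% and 6.64%, and the DMSO+EGF comparison 18 and 10, beside 11.1% and 11.4%.

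Further members passed the study's limits between the lines without overlap but not the adjusted test. In all, 5 members were higher and 3 lower past these limits with DMSO+EGF (1.04% and 2.37% of all tested genes), 1 and 1 with DMSO (1.98% and 1.93%), and 2 and 0 with cordycepin+EGF (0.897% and 0.648%). With DMSO+EGF these were higher in AMPK KO for LINC02935 at 1.90 (adjusted p 0.199), LINC02922 at 1.47 (0.104), LINC02641 at 1.16 (0.105), LINC01134 at 1.10 (0.0762) and LINC00652 at 1.02 (0.104). LINC02935 measured 0.876 and 2.12 RPKM in WT and 6.89 and 6.21 RPKM in AMPK KO, but the WT DMSO libraries measured 1.68 and 9.46 RPKM. Lower in AMPK KO were LINC02593 at -1.10 (0.0591), LINC01786 at -1.04 (0.165) and LINC01976 at -1.03 (0.134). With DMSO, LINC01134 was higher at 1.02 (0.11) and LINC02788 lower at -1.08 (0.194), the latter measuring 2.32 and 1.22 RPKM in WT and 0.705 and 0.419 RPKM in AMPK KO. With cordycepin+EGF, LINC02951 was higher at 2.19 (SE 0.642, adjusted p 0.253).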

How the data were processed

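RNA from 12 HEK293 libraries (6 groups, replicates 2 and 3 of each) was analysed. The authors made stranded, ribosomal RNA-depleted libraries from total RNA and sequenced them with paired reads. Mapping was to GRCh38.p13 and gene counting with Rsubread. The authors turned these counts into RPKM and deposited only those. The table listed 26058 genes, and 2 further entries naming no gene were left out. Groups and replicate numbers came from the sample labels. Gene symbols and positions were taken from GENCODE release 44, which named 26029 of the genes.

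RPKM were scaled to a common upper quartile, 0.5 was added, and log2 values of the 22067 genes with a mean of at least 0.5 RPKM were fitted over the 6 groups with limma 3.58.1 in R 4.3.3 (lmFit, contrasts.fit, eBayes with a trend, 2-sided), with Benjamini-Hochberg adjustment over all tested genes in each contrast. The fit had 6 residual degrees of freedom. The tests were run on simulated data in which only genes with many reads were changed, and by a large factor. That check does not cover the low counts and small differences of most members. Reads per gene were recovered from the RPKM steps as whole numbers (within 0.05) for 96.25% of genes at the annotated exon length and for 99.99% after a search over lengths.

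The members and comparison lists were chosen with earlier results of these data known. Named genes were all members with an adjusted p below 0.05, then up to 6 in each direction past an unadjusted p of 0.05 and a log2 fold change of 1 without overlap between groups, the 12 most abundant, and 3 on each side of the level limit. Members named for their spread, length or interaction, those without overlap in both lines or all treatments, and 2 exosome genes were chosen after their values were seen. Members grouped by structure or position, the lists of other lncRNA and protein-coding genes of at least 1 RPKM and the LINC genes of 0.5 to 1 RPKM were added after values were seen. The study calls the libraries biological replicates without stating separate cultures, so p-values measure the spread between these samples. Alternatives were pseudocounts of 0.1 and 1, no filter, RPKM as deposited, median-ratio scaling, only the groups compared, a replicate block, limma-voom on recovered reads, and leaving out each library.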

Additional observations from a re-analysis of the deposited data

How the results depend on the processing

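Counts of members called changed more than directions: of 874 values for called or named members under the alternatives, 718 kept their side of the threshold, 116 lost a call, 40 gained one and 0 turned direction. Limma-voom on recovered reads called 7 members for cordycepin in WT (0 as reported), 12 in AMPK KO (2) and 13 as the mean (6), 9 between lines with DMSO (0), 15 with DMSO+EGF (2), 2 with cordycepin+EGF (1) and 13 over the 3 treatments (6), and 15 for the interaction of cordycepin and line (0). With only the groups compared the counts were 0 for cordycepin in AMPK KO, 3 as the mean, 13 and 0 between lines with DMSO+EGF and with cordycepin+EGF, and 6 for the cordycepin interaction. A pseudocount of 1 and no filter each gave 4 for cordycepin in AMPK KO. Between lines with DMSO+EGF, pseudocounts of 0.1 and 1, no filter, RPKM as deposited and median-ratio scaling each gave 1. Leaving out 1 library gave 0 to 6 for EGF in WT (6 without WT DMSO replicate 2), 0 to 19 for cordycepin in AMPK KO and 0 to 10 as the mean (0 without WT DMSO+EGF replicate 3, WT cordycepin+EGF replicate 3 or AMPK KO DMSO+EGF replicate 2), and 0 to 13 for the cordycepin interaction. Between lines it gave 0 to 15 with DMSO (15 without WT DMSO replicate 3), 0 to 12 with DMSO+EGF, 0 to 1 with cordycepin+EGF, and 3 to 16 over the 3 treatments (3 without AMPK KO DMSO+EGF replicate 3, 16 without WT DMSO replicate 3). The values of 19, 13 and 12 came without either WT DMSO library. The cause was not tested. Shares of all tested genes called were not counted under the alternatives, so these member counts have no background beside them.

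Replicate numbers were not treated as pairs in the main fit. Deviations of same-numbered samples correlated above 0.1 in 6 of 15 pairs of groups (-0.122 to 0.322). Pairs of WT groups had 0.136, 0.282 and 0.314, and pairs of AMPK KO groups -0.068, 0.031 and -0.122. Whether replicates of the same number shared an effect was not tested. With a replicate block cordycepin gave 3 in AMPK KO and 5 as the mean, without LINC02560 (adjusted p 0.0519), and the lines with DMSO+EGF gave 1, without LINC02985 (adjusted p 0.0526). The shallow WT DMSO replicate 3 had a median of 22 reads a member, which limits what its group can show.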
